A study of Saccharomyces cerevisiae with 12 samples.

Results

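The 2 wild-type strains of the series, each the control of a temperature-sensitive (ts) mutant of another transcription factor, were compared with each other after the same shift to 37 C. They were chosen by sample title: the 3 arrays titled as wild type of the rap1 experiment and the 3 titled as wild type of the abf1 experiment, 6 of the 12 arrays of the series. The other 6 arrays hold a rap1 ts mutant and an abf1 ts mutant, whose factors stop binding DNA at 37 C per the series text. The organism was budding yeast, Saccharomyces cerevisiae, and its biotin-labelled RNA was read on 1-colour Affymetrix arrays.

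Per the labels, all 4 strains grew at 25 C and spent 1 h at 37 C before RNA was isolated with 1 kind of kit. The rap1 wild type, called so below for the experiment it belongs to and not for a mutation, carries the label of growth in the rich medium YPD. The abf1 wild type carries a label of growth with no medium named, and the rap1 ts and abf1 ts labels name YPD. The sources used here name no strain background, mating type or auxotrophic markers for the wild types, and a sample before the shift was not analysed here. Growth label and strain cannot be told apart in this comparison. The labels also leave unstated whether the 3 arrays of a strain stand for 3 cultures. The p-values below therefore cover the spread between arrays alone, and part of it could be technical.

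A shift of yeast to 37 C switches on heat shock proteins, the chaperones that hold, refold or sort unfolded proteins, mainly through the transcription factor Hsf1. It also engages the general stress response, driven by Msn2 and Msn4, whose targets include antioxidant enzymes, reserve carbohydrate enzymes and aldehyde dehydrogenases. Ribosomal protein genes are known to be turned down for a short time after such a shift and to recover afterwards.

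The array holds 9335 probe sets, of which 60 are controls. The 6832 probe sets with a gene name stand for 5859 features, a gene or a set of genes that share a probe set, and 4687 of these passed a filter on dim signals. Each value is a deposited signal intensity, scaled per array by the MAS5 algorithm of Affymetrix, so that a change of all RNA alike is not visible. Signals are given below for arrays 1, 2 and 3 of the rap1 wild type against arrays 1, 2 and 3 of the abf1 wild type. Array 2 of the rap1 wild type stood apart: its median signal over non-control probe sets was the lowest of the 12 arrays at 390.4, against 465.2 to 598.3 in the other wild-type arrays, and its brightest 1% of named probe sets held 15.7% of the signal, against 9.26% to 11.5%. Many list results below are given with and without it, and differences of single genes include it. Between arrays, log2 signals correlated at 0.894 to 0.938 within a strain and at 0.869 to 0.951 between the strains, so an array of the other wild type could be as close as one of the same.

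The ratio of a transcript's signal near its 3' end to that near its 5' end, which grows as RNA or labelled copies shorten, was available for 3 control genes. For ACT1, which encodes actin, its geometric mean was 6.75 in the rap1 wild type and 12.02 in the abf1 wild type (2-sided exact permutation p = 0.5, n = 3 and 3). Ratios for the TATA-binding protein gene SPT15 were 4.98 and 5.70 (exact p = 0.9). For SRB4, a Mediator subunit gene, they were 46.5 and 177 (exact p = 0.3), and 3 against 3 arrays cannot go below 0.1. All 3 ratios were thus larger in the abf1 wild type on average, within the spread of the arrays, and their part in the differences below was not tested.

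What the heat-shifted wild types expressed was read first. A signal contains the affinity of its probes as well as the RNA, so the order of brightness is a description of the array and not a ranking of transcripts. The brightest probe set naming 1 gene was that of RPS22A, a protein of the small ribosomal subunit, at 29150.2, 60268 and 26906 in the 3 arrays of the rap1 wild type and 38872, 33350.5 and 32141 in those of the abf1 wild type. CCW12, a mannoprotein of the cell wall, read 27767, 55901 and 24215 against 39138, 31357 and 31248. ADH1, the alcohol dehydrogenase of fermentation, read 27081, 46531 and 23436 against 23263, 27616 and 29258. For each of these 3 genes array 2 of the rap1 wild type gave the highest value of all 6, and the ranges of the strains overlapped.

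Other ribosomal protein genes among the 15 brightest were RPS21B, RPS21A, RPL36A, RPL21B, RPS3, RPL22A, RPL5, RPL16A and RPL24B. The remaining members were TDH3 and TPI1, glycolytic enzymes of triose phosphate metabolism, and the gene listed as YDR524C-B. Of the 100 brightest genes, 46 encoded cytosolic ribosomal proteins, of 80 such genes that a probe set names alone. The identifiers of the probe sets of RPS21B, RPS21A, RPL36A and TDH3 carry an extra letter, as do those of SSA1, MFA1 and HSP82 below. This held for 304 of the 4687 features, and whether such probe sets also read related genes was not tested. Glycolysis and fermentation gave 10 of its 26 genes, the cell wall 3 of 44, ribosome assembly 3 of 67 and translation factors 3 of 29. Heat shock proteins gave 2 of 35 and the stress and redox genes 2 of 45. The median cytosolic ribosomal protein gene lay at percentile 98 of brightness over all 5859 features, and 76 of the 80 lay in the top 10%.

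The heat shock proteins were bright as a group, with a median at percentile 83.8 and 14 of 35 genes in the top 10%. SSA1, a cytosolic Hsp70 chaperone, was their brightest member at 21679, 20742 and 21818 in the rap1 wild type and 37163, 28046 and 30949.5 in the abf1 wild type. Its 3 rap1 arrays all read below its 3 abf1 arrays. The proteasome, the protease of ubiquitin-tagged proteins, had its median at percentile 83.2. Mitochondrial ribosomal proteins lay lower, at percentile 63.9, with 1 of 71 genes in the top 10%.

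Lists of genes known to be kept off by glucose or in haploid cells held many dim members, and why they were dim was not tested. Galactose use had 6 of 7 genes in the lowest 20%, the exception being GAL80, the pathway's repressor. The meiosis and sporulation list had 19 of 23 there, and gluconeogenesis with acetate use 10 of 21. IME2, a kinase of early meiosis, read 74.1, 61.5 and 65.8 in the rap1 wild type and 91.9, 67.1 and 93.3 in the abf1 wild type. HXT3, a low-affinity glucose transporter, was bright instead, at 22554, 30315 and 18349 against 21937, 22588 and 19562. These readings did not separate the strains, whose ranges overlapped for both genes.

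The 10 dimmest probe sets with 1 gene name belonged to COS10, YGR109W-B, PTP2, BI2, MMS22, TFC3, YFR057W, SEC16, TOR1 and IRA2, with means over the 6 arrays of 0.283 to 1.47. A dim probe set was often not a silent gene. For 8 of these genes the array holds 1 or more further probe sets, and the brightest of them averaged 94.3 for COS10, 400.0 for MMS22, 459 for TOR1, 658 for PTP2, 796 for TFC3, 1701 for IRA2, 1757 for SEC16 and 7727 for the Ty gene YGR109W-B. IRA2, an inhibitor of Ras, has 11 probe sets, TOR1, a kinase of growth control, has 9 and SEC16, a coat protein of vesicle formation, has 9. Only YFR057W and the mitochondrial reading frame BI2 had no second probe set.

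The identity of the strains was checked on mating-type genes. Haploid a cells express the pheromone genes MFA1 and MFA2 and the alpha-factor receptor STE2, and alpha cells express the receptor STE3 and the alpha-factor genes MF(ALPHA)1 and MF(ALPHA)2. MFA1 read 9127, 9152 and 9969 in the rap1 wild type and 7660.1, 13418 and 18421 in the abf1 wild type. STE2 read 1741, 2968 and 2335 against 1011, 2153 and 2273, whereas STE3 stayed at 36.4, 90.5 and 114 against 94.4, 68.1 and 67.9. MF(ALPHA)1 reached 195 at most and MF(ALPHA)2 at most 137 in any of the 6 arrays. Not every a-specific gene was bright: AXL1 lay between 287 and 429.5, and ASG7, which did not pass the filter, between 88.2 and 191. SAG1, the alpha-agglutinin gene, read 262 to 427 and was the only alpha-specific gene to pass. The pheromone and receptor genes thus had the a pattern in both wild types, while AXL1 and SAG1 did not set the types apart. STE4, the G protein beta subunit of haploid cells of either type, read 6949.9, 5870.4 and 4666 against 5405, 6549 and 6113.

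Genes often deleted as auxotrophic markers were all above the filter in both strains. URA3, of uracil synthesis, read 7576, 5666 and 3862 in the rap1 wild type and 4066, 6959 and 5885 in the abf1 wild type. LEU2, of leucine synthesis, read 8702, 12771 and 4254 against 6515, 12107 and 8093, and HIS3, of histidine synthesis, 908, 912 and 1317 against 1379.5, 991 and 1132. Of the 10 marker genes 9 had overlapping ranges, and no marker passed the adjusted test. CAN1, the arginine permease, was the exception with 709, 985 and 1437 in the rap1 wild type and 579, 697 and 447 in the abf1 wild type, a log2 difference of 0.81 (SE 0.43, unadjusted p = 0.0844 by limma).

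The comparison of the strains asked how far the 2 controls of the series differ after the same treatment. Across all 4687 features no difference passed limma's test at a Benjamini-Hochberg adjusted p under 0.05, with 0 features higher (0%) and 0 lower (0%) in the rap1 wild type. At an unadjusted p under 0.05, 18 features (0.384%) were higher and 138 (2.94%) lower in the rap1 wild type. The 3 arrays of 1 strain lay entirely above those of the other in 95 features (2.03%) in favour of the rap1 wild type and in 337 (7.19%) in favour of the abf1 wild type. Log2 differences, always rap1 wild type minus abf1 wild type on log2(signal + 12.6), were below 0 for 62.6% of features, with a median of -0.11 and a median standard error of 0.33. That imbalance moved with scaling: centring each array on its median brought the median to 0.0033, and quantile scaling to -0.026. Non-overlapping features numbered 150 higher and 213 lower under median centring, and 180 and 265 under quantile scaling. Under median centring 31 features were higher and 109 lower at an unadjusted p under 0.05, and under quantile scaling 34 and 122. Without array 2 of the rap1 wild type the median was -0.030, with 2141 features above 0 and 2546 below. At an unadjusted p under 0.05, 5 features were then higher and 55 lower. These counts of the 4687 features are the ones to set beside lists given below without that array.

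**Figure D1:**
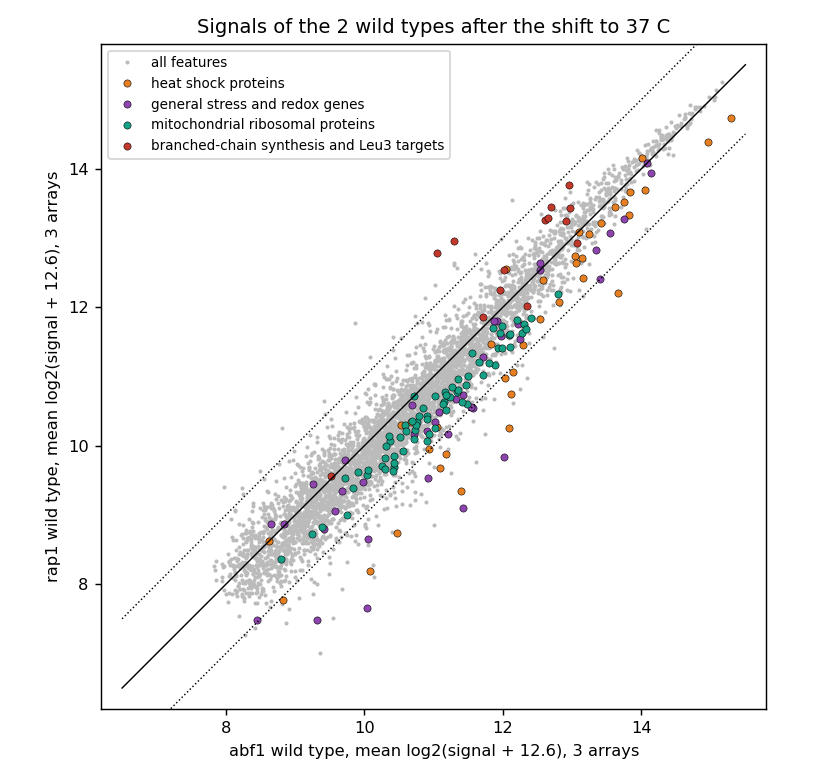
Mean log2(signal + 12.6) of each of the 4687 features over 3 arrays of the abf1 wild type (horizontal axis) and 3 arrays of the rap1 wild type (vertical axis), with 4 gene lists in colour; the solid line marks equal signals and the dotted lines a log2 difference of 1. Most features lie along the line, most heat shock, stress and mitochondrial ribosomal protein genes lie under it, and LEU1 and OAC1 lie above the upper dotted line.

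Since no difference was called, the genes below are described by their values. On the higher side 3 genes met the weaker criterion of an unadjusted p under 0.01 with non-overlapping arrays, and all 3 serve the branched-chain amino acids. LEU1, isopropylmalate isomerase of leucine synthesis, read 6139, 9710.1 and 5774 in the rap1 wild type and 1933, 2719 and 1779 in the abf1 wild type. The lowest rap1 array thus lay above the highest abf1 array by more than the whole range of the abf1 arrays. Its log2 difference was 1.73 (SE 0.29, 95% interval 1.10 to 2.35, limma adjusted p = 0.111), a fold of 3.31. OAC1, the mitochondrial oxaloacetate carrier, which also exports isopropylmalate for leucine synthesis, read 6430.1, 13688 and 5736 against 3109, 2016 and 2479.9, a difference of 1.67 (SE 0.38, limma adjusted p = 0.574). ILV5, the ketol-acid reductoisomerase of isoleucine and valine synthesis, read 9173, 13210.4 and 11524 against 7637, 6169.9 and 6117, a difference of 0.76 (SE 0.24, limma adjusted p = 0.965).

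These genes are known targets of Leu3, an activator that responds to isopropylmalate. A list of the branched-chain enzymes and Leu3 targets was therefore drawn up after the values were seen, so its counts are no independent support. Of its 14 members 12 lay above 0, against 37.4% of all features, and 5 had an unadjusted p under 0.05, against 0.384%, with a median difference of 0.49. BAT1, the mitochondrial branched-chain aminotransferase, read 13848, 18630.1 and 10366 in the rap1 wild type and 6699, 10665 and 7039.6 in the abf1 wild type (0.80, SE 0.29), and its ranges overlapped only through arrays 3 and 2. MAE1, the mitochondrial malic enzyme, read 11305, 14223 and 6171 against 6525, 5825 and 6929.5 (0.64, SE 0.29), with rap1 array 3 inside the abf1 range.

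No other member reached an unadjusted p under 0.05. ILV3, a dehydratase shared by all 3 branched-chain pathways, had a difference of 0.65 (SE 0.33), and ILV1, the threonine deaminase of isoleucine synthesis, one of 0.52 (SE 0.35). LEU3 itself read 723, 731 and 769 against 578, 793 and 817, with nearly equal means. BAT2, the cytosolic aminotransferase, and LEU2 were the 2 members below 0. Over the 6 arrays, the mean log2 signal of the list was 12.57, 13.04 and 12.38 in the rap1 wild type and 11.99, 12.28 and 12.11 in the abf1 wild type, which did not overlap. Without array 2 of the rap1 wild type the list's median was 0.30, with 12 of 14 still above 0 and 3 at an unadjusted p under 0.05.

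**Figure D2:**
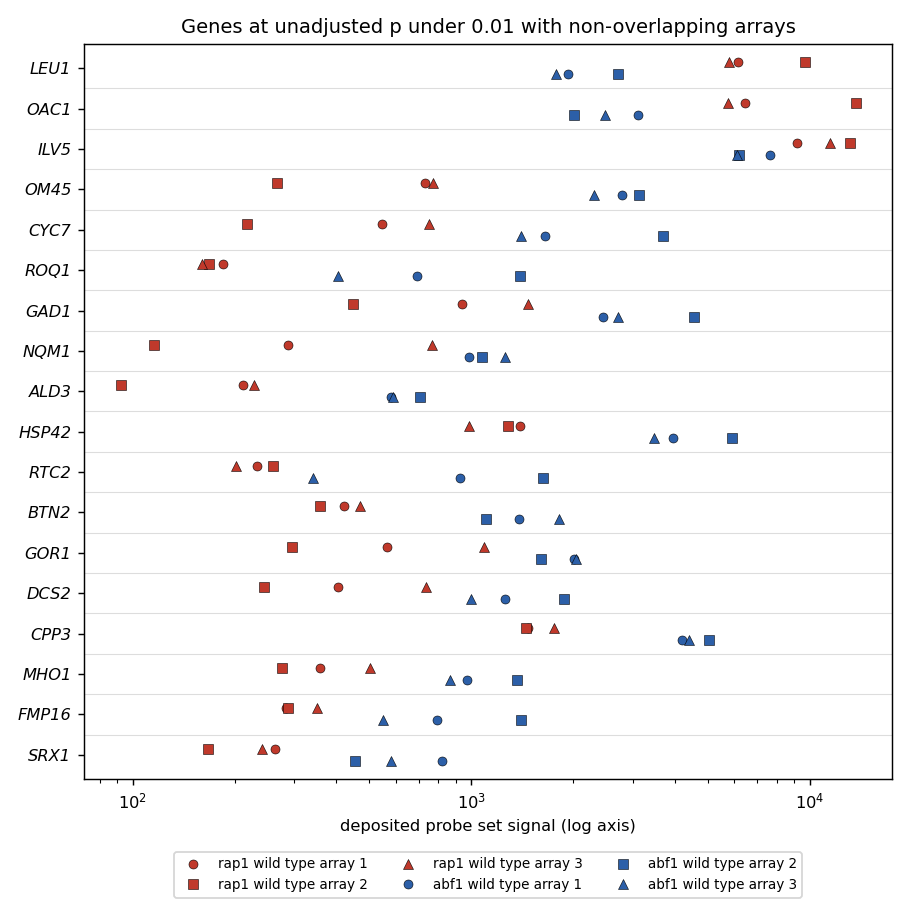
Deposited signal (log axis) in each array for the 3 genes higher and the 15 genes lower in the rap1 wild type with an unadjusted p under 0.01 and no overlap between the strains, the lower ones ordered by size of the difference. The red points of the rap1 wild type lie to the right of the blue points of the abf1 wild type for LEU1, OAC1 and ILV5 and to the left for the other 15; array 2 of the rap1 wild type, the red square, is often the lowest.

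On the lower side 33 genes met the same criterion, and the 15 of largest difference are named here; features at an unadjusted p under 0.01 made up 0.747% of all on this side and 0.0640% on the other. The smallest adjusted p of the whole comparison belonged to BTN2, which helps to gather misfolded proteins into deposits under heat. BTN2 read 422, 358 and 469 in the rap1 wild type and 1384, 1107 and 1824 in the abf1 wild type, a log2 difference of -1.74 (SE 0.26, 95% interval -2.31 to -1.17, limma adjusted p = 0.08). HSP42, a small heat shock protein that works at the same deposits, read 1399, 1285 and 985 against 3942, 5905 and 3474 (-1.83, SE 0.42, limma adjusted p = 0.574). For both genes every abf1 array was more than double the brightest rap1 array. ROQ1, a stress-made regulator of the ubiquitin ligase Ubr1, read 185, 168 and 159.8 against 692, 1395 and 404 (-2.02, SE 0.62).

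The 15 also held OM45, CYC7 and FMP16, genes of mitochondrial proteins, and SRX1. OM45, a protein of the mitochondrial outer membrane, had the largest difference with 732, 268 and 774 in the rap1 wild type and 2782, 3124 and 2313 in the abf1 wild type (-2.32, SE 0.44, limma adjusted p = 0.25). CYC7, the cytochrome c isoform made at low oxygen or under stress, read 546, 218 and 749 against 1657, 3692 and 1404 (-2.16, SE 0.55). SRX1, sulfiredoxin, which repairs oxidised peroxiredoxins, read 263, 168 and 241 against 822, 453 and 579 (-1.40, SE 0.41). The strains did not overlap in any of the 3, although rap1 array 2 was by far the lowest for OM45 and CYC7. FMP16, whose protein was found in mitochondria, differed by -1.44 (SE 0.45).

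ALD3, a cytoplasmic aldehyde dehydrogenase of the stress and redox list, read 212, 92.3 and 228 in the rap1 wild type and 579, 708 and 586 in the abf1 wild type (-1.83, SE 0.41). GAD1, glutamate decarboxylase, read 941, 449 and 1474 against 2459, 4548 and 2715 (-1.85, SE 0.56). NQM1, a stress-linked relative of transaldolase, read 288, 116 and 766 against 983, 1074 and 1256 (-1.84, SE 0.54). In each of these, all abf1 arrays lay above all rap1 arrays, with rap1 array 3 the nearest. GOR1, glyoxylate reductase, differed by -1.70 (SE 0.50), DCS2, the stress-made relative of the cap-scavenging enzyme Dcs1, by -1.64 (SE 0.54), and RTC2, a vacuolar amino acid exporter, by -1.75 (SE 0.49). The last 2 were MHO1 at -1.48 (SE 0.37) and CPP3 at -1.54 (SE 0.38). CPP3 read 1476, 1449.9 and 1757 in the rap1 wild type and 4210.2, 5033 and 4406 in the abf1 wild type. Each of the 15 genes has 1 probe set on the array, so no second probe set could be set beside it.

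The heat shock protein list was read as a whole. Of its 37 features 34 lay below 0, against 62.6% of all features, and 12 lower ones had an unadjusted p under 0.05, against 2.94%; none was called and 6 had non-overlapping arrays, against 7.19%. The list's median difference was -0.56, against -0.11 over all features. Its mean log2 signal was 11.57, 11.15 and 12.22 in the rap1 wild type and 12.39, 11.96 and 12.66 in the abf1 wild type, so rap1 array 3 lay above abf1 array 2. Leaving out array 2 of the rap1 wild type gave a median of -0.24, with 28 of 37 below 0 and 7 at an unadjusted p under 0.05, while 6 did not overlap. Over all 4687 features 2546 then lay below 0, 55 were lower at that p and 418 were lower without overlap. The last count was 337 with all arrays, since non-overlap is easier to meet with fewer arrays. The median was -0.31 without abf1 array 3 and -0.86 without rap1 array 3.

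Within the list the size varied from member to member. HSP82, the inducible Hsp90 chaperone, read 3461, 3279 and 9247 in the rap1 wild type and 14643, 9202 and 15847 in the abf1 wild type (-1.45, SE 0.45), with rap1 array 3 just above abf1 array 2. SSA4 and SSA3, heat-induced Hsp70 genes, differed by -1.42 (SE 0.57) and -1.88 (SE 0.59), and SSA1 by -0.57 (SE 0.22). HSP104, the disaggregase, read 1252, 1095 and 3631 against 2713, 5451 and 5819 (-1.36, SE 0.56). For HSP104, rap1 array 3 lay inside the abf1 range and the other 2 rap1 arrays under it. HSP78, the disaggregase of mitochondria, showed the same shape at 388, 244 and 2667 against 2668, 1995 and 3591 (-2.05, SE 0.86). CUR1, a relative of BTN2, differed by -1.06 (SE 0.38) and the Hsp40 cochaperone SIS1 by -0.83 (SE 0.30), both without overlap. HSP26, a small heat shock protein, differed by -1.09 (SE 0.73) with overlap. The features above 0 were HSP150, a secreted glycoprotein of the cell wall, CPR7, a cochaperone of Hsp90, and the shared probe set of SSB1 and SSB2, Hsp70s of the ribosome. Their values were not past an unadjusted p of 0.05.

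The stress and redox list had 33 of 39 features below 0 and a median of -0.53, with 7 lower features at an unadjusted p under 0.05 and 7 without overlap. Over all features the shares were 62.6% below 0, 2.94% lower at that p and 7.19% lower without overlap. DDR2, a small protein made in many stresses, read 496, 689.6 and 2109 in the rap1 wild type and 6012, 2491 and 4724 in the abf1 wild type (-2.19, SE 0.75). GPX1, a glutathione peroxidase, read 732, 815 and 641 against 1483, 3329 and 1426 (-1.39, SE 0.39). TMA10 read 409.5, 132 and 120.5 against 493, 5052 and 445 (-2.39, SE 1.00), where abf1 array 2 alone was far above the rest. All 3 had non-overlapping arrays, as had GRX2, a glutaredoxin (-0.71, SE 0.25), and SOD1, the cytosolic superoxide dismutase (-0.47, SE 0.21). CTT1, the cytosolic catalase, differed by -0.97 (SE 0.53) with overlap, and TFS1 by -0.97 (SE 0.63). Without array 2 of the rap1 wild type the list's median was -0.39, with 31 of 39 below 0 and 4 at an unadjusted p under 0.05, and without rap1 array 3 it was -0.88.

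Trehalose and glycogen genes had 15 of 17 features below 0 and a median of -0.64, with 1 lower feature at an unadjusted p under 0.05. This was NTH1, the neutral trehalase, at 3635, 1600.3 and 3569 in the rap1 wild type and 5334, 4594 and 3987 in the abf1 wild type (-0.74, SE 0.30). Without array 2 of the rap1 wild type no feature of the list reached that p. In this list abf1 array 2 alone was high, with a mean log2 signal of 11.51 against 9.86 to 10.39 in the other 5 arrays, and the median without it was -0.22. Together the heat shock, stress and reserve carbohydrate lists held 93 of the 4687 features and 20 of the 138 with a lower signal at an unadjusted p under 0.05.

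The ribosomal proteins of mitochondria had 69 of 70 features below 0 with a median of -0.51, against 62.6% of all features below 0. Yet 3 of the 70 reached an unadjusted p under 0.05, against 2.94% of all features, and 1 had non-overlapping arrays, below the 7.19% of all features. Their mean log2 signal was 10.79, 9.79 and 10.97 in the rap1 wild type and 11.40, 10.61 and 11.04 in the abf1 wild type. Array 2 was the lowest in both strains, and without rap1 array 2 the median was -0.16, with 54 of 70 below 0 and none at an unadjusted p under 0.05. Without rap1 array 1, rap1 array 3 or abf1 array 2 the count at that p was 13, 14 and 13. The lower features at that p over all 4687 also rose, from 138 to 166, 246 and 192. MRPL24 differed by -0.88 (SE 0.38) and MRPL8 by -0.69 (SE 0.30), both of the large subunit and both with overlap. The transcripts of the mitochondrial genome, with 3 features past the filter, lay on the other side with 2 of 3 above 0 and a median of 0.15, which ran from -0.16 to 0.70 with 1 array left out.

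The citric acid cycle had 14 of 15 features below 0 with a median of -0.58, and 2 without overlap, against 62.6% and 7.19% of all features. These were MDH1, mitochondrial malate dehydrogenase, at 2334, 2087 and 3507 in the rap1 wild type and 5574, 3547 and 3632 in the abf1 wild type (-0.69, SE 0.26), and SDH3, of succinate dehydrogenase (-0.62, SE 0.27). The respiratory chain and ATP synthase had 31 of 35 below 0 with a median of -0.41 and 3 lower features at an unadjusted p under 0.05: CYC7 and the cytochrome bc1 subunits QCR8 (-0.69, SE 0.28) and QCR6. QCR6 read 5593, 3123 and 5457 against 13353, 4788 and 11858, with abf1 array 2 inside the rap1 range. Outside these lists, CYB2, a lactate dehydrogenase of mitochondria, read 206, 133 and 636 against 1308, 883 and 1210.2 (-2.04, SE 0.78); it was chosen after its values were seen. The proteasome had 30 of 36 features below 0 with a median of -0.22 and no feature at an unadjusted p under 0.05. Without array 2 of the rap1 wild type the medians were -0.37 for the citric acid cycle, -0.26 for the respiratory chain and -0.099 for the proteasome. The citric acid cycle then had 0 and the respiratory chain 1 lower feature at an unadjusted p under 0.05. Without array 1 of the abf1 wild type the medians were -0.25 for the citric acid cycle and -0.18 for the respiratory chain.

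**Figure D3:**
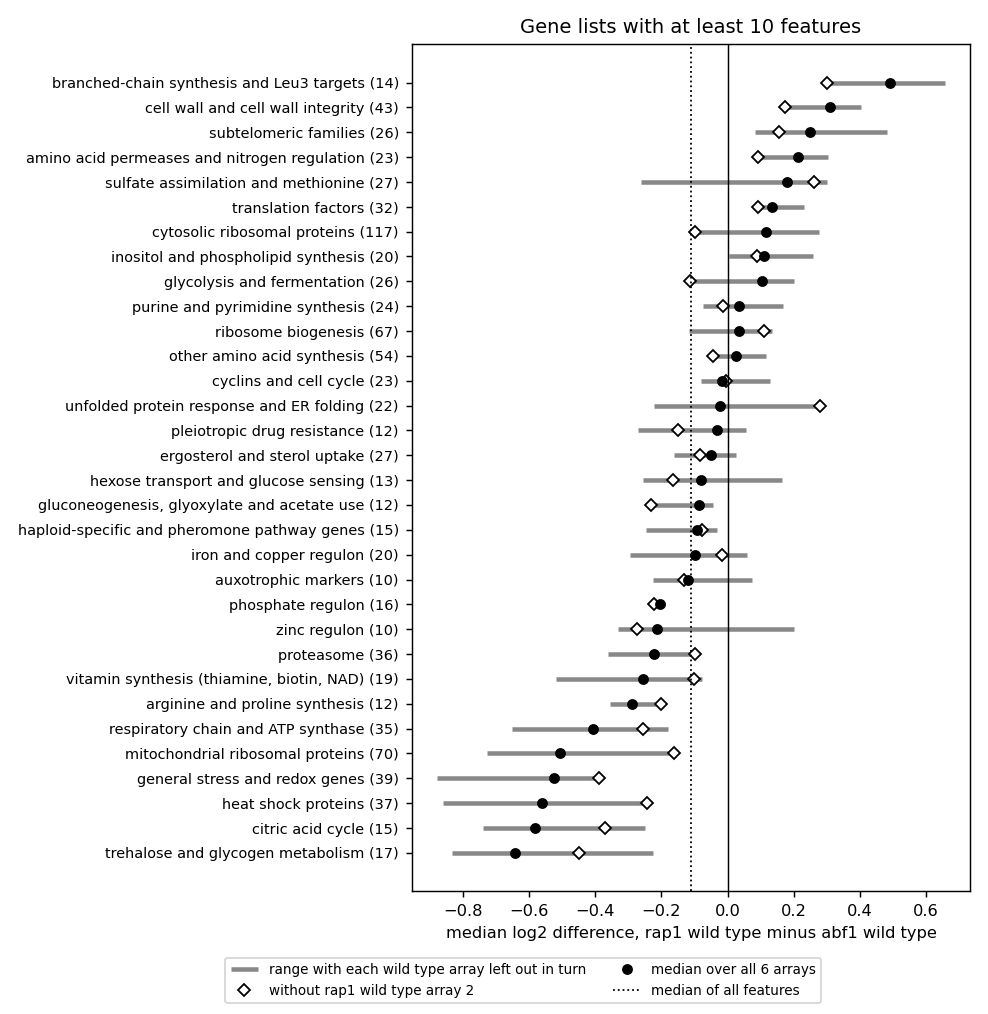
Median log2 difference (rap1 wild type minus abf1 wild type) of the gene lists with at least 10 features, the number of features in brackets; circles are all 6 arrays, grey bars the range with each wild-type array left out in turn, diamonds the value without array 2 of the rap1 wild type, and the dotted line the median of all features. Trehalose and glycogen, citric acid cycle, heat shock, stress, mitochondrial ribosomal protein and respiratory lists stay below 0 over their whole bars. So do the arginine and proline, phosphate, vitamin, proteasome, gluconeogenesis and haploid-specific lists. The branched-chain, cell wall, permease, translation factor, subtelomeric and inositol lists stay above 0. The cytosolic ribosomal protein and glycolysis lists are among those that cross 0.

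Cytosolic ribosomal proteins, the brightest list, had 98 of 117 features above 0 and a median of 0.11, but the median was -0.10 without array 2 of the rap1 wild type, with 33 of 117 above 0. Their mean log2 signal was 14.43 in that array and 13.71 to 13.95 in the other 5. Glycolysis and fermentation behaved alike, with a median of 0.10 that turned to -0.12 without that array. No member of either list had an unadjusted p under 0.05. The 67 features of ribosome assembly had a median of 0.035 and no member at an unadjusted p under 0.05. Leaving out each array in turn gave medians of -0.12, without rap1 array 1, to 0.13, without abf1 array 3. Translation factors had 24 of 32 features above 0 and a median of 0.13.

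Cell wall genes lay mostly on the higher side, with 31 of 43 features above 0, a median of 0.31 (0.17 without array 2 of the rap1 wild type) and 5 higher features without overlap, against 37.4% and 2.03% of all features. UTR2, a transglycosylase that links chitin to glucan, read 7487, 9816 and 7530.2 in the rap1 wild type and 4286, 4958 and 6738 in the abf1 wild type (0.65, SE 0.27). EGT2 and DSE2, proteins of daughter cell separation, differed by 0.81 (SE 0.38) and 0.84 (SE 0.45), and FKS1, glucan synthase, by 0.42 (SE 0.25). The further, dimmer probe sets of FKS1 gave differences from 0.065 to 1.49. UTR2 was the only feature of the list at an unadjusted p under 0.05, and the 4 genes named here did not overlap between the strains. Without array 2 of the rap1 wild type no feature of the list reached that p.

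Amino acid genes went both ways. The list of other amino acid synthesis had a median of 0.027. It had 3 higher and 3 lower features of 54 at an unadjusted p under 0.05, against 0.384% and 2.94% of all features. The higher ones included LEU1 and ILV5, already described. Quantile scaling or median centring left 1 lower feature at that p, and leaving out rap1 array 1 left 0. The 3 lower ones, named after their values were seen, all make lysine: LYS20, homocitrate synthase (-0.94, SE 0.38), and LYS1 and LYS9, the saccharopine dehydrogenases of its last steps (-1.26, SE 0.54, and -1.21, SE 0.53). LYS9 read 1239.5, 1274 and 1384 in the rap1 wild type and 6375, 2415 and 1777 in the abf1 wild type, where abf1 array 1 was far above the others. LYS1 and LYS20 were also highest in that array, at 5727 and 26245.

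Amino acid permeases and nitrogen genes had 18 of 23 features above 0 and a median of 0.21, which was 0.091 without array 2 of the rap1 wild type. BAP2, a branched-chain amino acid permease, read 2603, 2299 and 2678 in the rap1 wild type and 1993, 1783 and 1049.6 in the abf1 wild type (0.70, SE 0.30) without overlap. PUT1, proline oxidase, was the 1 lower member at an unadjusted p under 0.05, at 359, 354 and 427 against 967, 611 and 804 (-1.02, SE 0.35). CAR1, arginase, gave 1602, 2011 and 2214 against 4087, 2900.5 and 2979 (-0.77, SE 0.24) in the list of arginine and proline synthesis and use, where 9 of 12 features lay below 0 with a median of -0.29. Neither PUT1 nor CAR1 overlapped between the strains.

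Sulfate assimilation and methionine genes differed more between arrays than between strains. Of 27 features 17 lay above 0, with a median of 0.18 and none at an unadjusted p under 0.05. The median lay below 0 without rap1 array 3 (-0.20) and without abf1 array 1 (-0.26). MET3, ATP sulfurylase, which starts sulfate assimilation, read 1159, 614 and 3108 in the rap1 wild type and 492, 777 and 3526 in the abf1 wild type. MET14, the kinase of the next step, read 2676, 1272 and 4284 against 817, 1708 and 6781, and MET6, methionine synthase, 659, 722 and 3703 against 155, 338 and 1521. Array 3 was the highest of its strain for each of these 3 genes, which were named after their values were seen.

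Metal and vitamin genes gave single members that stood out. In the iron and copper list, whose 20 features had a median of -0.10, ISU2, a scaffold of iron-sulfur cluster assembly, read 2492, 4340.1 and 1410.1 against 1639, 1049 and 704 (1.21, SE 0.40) with overlap. CRS5, a copper-binding metallothionein, differed by -0.93 (SE 0.38) without overlap. In vitamin synthesis, where 15 of 19 features lay below 0 with a median of -0.26 (-0.10 without array 2 of the rap1 wild type), SNZ1, of vitamin B6 synthesis, read 737, 450.0 and 683 against 1374, 1202 and 1002 (-0.94, SE 0.30), also without overlap. ZPS1, a zinc-regulated cell wall protein, read 750.5, 775 and 782 against 14469.9, 1126 and 866 (-1.64, SE 0.77). Its 3 abf1 arrays all lay above the rap1 arrays, but array 1 alone was far above. The zinc list had a median of -0.21 over 10 features, which was 0.20 without abf1 array 1, and the phosphate list one of -0.20 over 16, each with no feature at an unadjusted p under 0.05.

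The remaining lists of 10 or more features had medians between -0.092 and 0.25. Inositol and phospholipid synthesis had a median of 0.11, which was 0.0032 without abf1 array 2 and 0.26 without rap1 array 1. Of 22 features of folding in the endoplasmic reticulum 10 lay above 0, and the median was -0.024. It was 0.28, with 19 features above 0, without array 2 of the rap1 wild type, and -0.22 without rap1 array 3. The medians of purine and pyrimidine synthesis (0.036), ergosterol synthesis (-0.051), cyclins and cell cycle genes (-0.018), hexose transport (-0.079) and drug resistance (-0.031) also changed sign when 1 array was left out, purine and pyrimidine synthesis to -0.013 without rap1 array 2. Gluconeogenesis had a median of -0.086 (-0.23 without rap1 array 2) and haploid-specific genes one of -0.092, and both lay above 0 under median centring, at 0.028 and 0.022. None of these lists had a feature at an unadjusted p under 0.05. The subtelomeric families, whose members share sequence so that probes may not tell them apart, had 18 of 26 features above 0 and a median of 0.25, likewise with none. That median was 0.16 without rap1 array 2, 0.082 without abf1 array 3 and 0.48 without abf1 array 2. Of the meiosis and sporulation list 4 of 23 features passed the filter. SGA1, the glucoamylase of sporulation, read 672, 514 and 594 against 1509, 1049 and 823 (-0.88, SE 0.38) without overlap, and SPS19, an enzyme of fatty acid oxidation named for its sporulation expression, 269.6, 119 and 435 against 1058, 420.5 and 547 (-1.32, SE 0.56) with overlap.

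The 2 genes that name the experiments were compared as well. RAP1 read 1089.7, 858 and 886 in the rap1 wild type and 639.9, 911 and 839 in the abf1 wild type (0.25, SE 0.30, limma adjusted p = 0.965), with overlapping arrays. ABF1 read 344, 216 and 682 against 1001, 603 and 1423 (-1.33, SE 0.62, unadjusted p = 0.0515, limma adjusted p = 0.965). Array 3 of the rap1 wild type lay above array 2 of the abf1 wild type for ABF1, and the other 2 rap1 arrays lay under all abf1 arrays. In the ts mutants ABF1 averaged 353 in rap1 ts and 3176 in abf1 ts, a difference of -3.40 (SE 0.62, limma adjusted p = 0.0187), which was called.

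Whether a difference between the wild types recurred between the ts mutants was read from the 6 mutant arrays, which the wild-type comparison did not use for its means. These arrays are no independent check. Wild-type and mutant arrays of the same experiment and replicate number had a correlation of 0.53, as estimated by limma over all features. Between the mutants 33 features were called higher (0.704%) and 42 lower (0.896%) in rap1 ts, and 49.9% of features lay below 0. Over all features the wild-type and mutant differences correlated at -0.088 (Pearson's r across 4687 features of the same 12 arrays, given as a description). Of the 15 lower genes 13 were also below 0 between the mutants, and of the 3 higher genes 2 were above 0. CPP3 was the 1 of these 18 genes called between the mutants, at -2.93 (SE 0.38, limma adjusted p = 0.00312). Among the others, HSP42 gave -1.58 (limma adjusted p = 0.0867), FMP16 -1.76 (limma adjusted p = 0.078) and SRX1 -1.49 (limma adjusted p = 0.0994), while CYC7 gave 0.27 and GOR1 0.17. LEU1 gave 0.60 (limma adjusted p = 0.355).

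**Figure D4:**
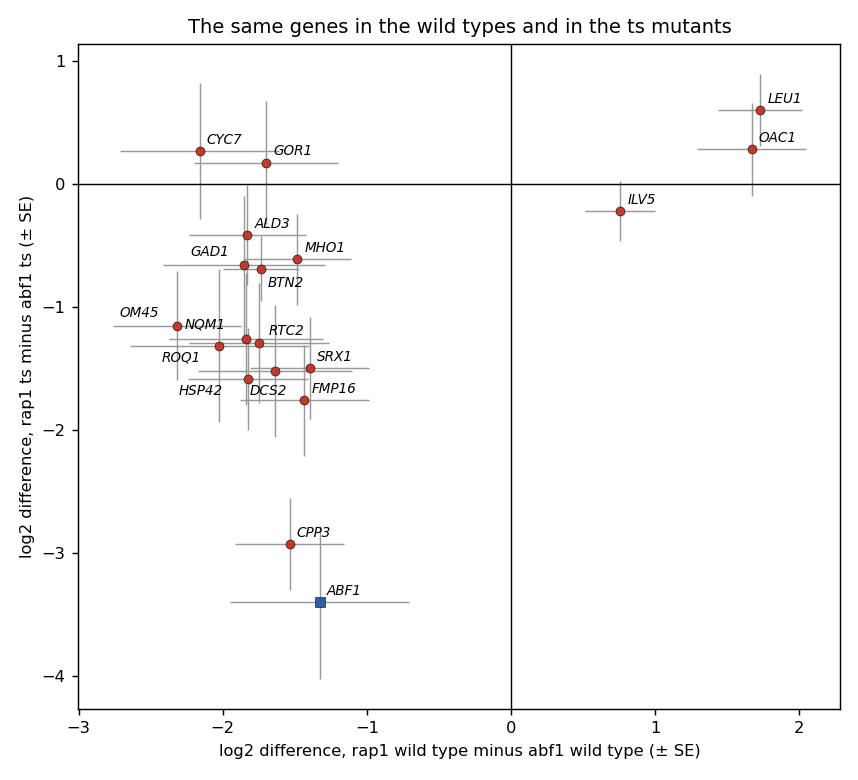
Log2 difference between the wild types (horizontal axis) and between the ts mutants (vertical axis), rap1 experiment minus abf1 experiment in both, for the 18 named genes (circles) and ABF1 (square); bars are standard errors of the fit. Of the 15 genes at the left 13 lie below 0 on the vertical axis, CYC7 and GOR1 lie just above 0, and CPP3 and ABF1 lie lowest.

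Gene groups differed in this respect. The stress and redox list had a median of -0.53 between the wild types and -0.42 between the mutants, and the heat shock list -0.56 and -0.18. The mitochondrial ribosomal proteins turned from -0.51 to 0.59, with 5 of 70 features called higher in rap1 ts. The cell wall list turned from 0.31 to -0.77, with 3 of 43 called lower. Of all features 0.704% were called higher and 0.896% lower. Without array 2 of the rap1 wild type the wild-type medians were -0.16 for the mitochondrial ribosomal proteins and 0.17 for the cell wall list. For the branched-chain list the medians were 0.49 between the wild types and -0.30 between the mutants. No feature passed the test of the difference between the 2 contrasts in limma (0 of 4687 at an adjusted p under 0.05). At an unadjusted p under 0.05 there were 596, or 12.7%. A difference between the contrasts is thus not shown for any single gene. The fit did not pair wild-type and mutant arrays of the same experiment and replicate number, which correlated at 0.53. It may therefore miss differences that a paired fit would find, and no paired fit of this contrast was run. CAR1 was called between the mutants at -1.26 (limma adjusted p = 0.0234) and LEU2 at -1.80 (limma adjusted p = 0.0267), whose wild-type arrays overlapped.

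The spread within each wild type was only part of what limited the comparison. The standard errors of the main fit also held the spread of the mutant arrays. The median SD of a feature's log2 signal was 0.38 in the rap1 wild type and 0.31 in the abf1 wild type, and 165 and 139 features had an SD over 1. ANB1, a translation factor gene that yeast expresses when oxygen is short, read 5935, 29417 and 1372 in the rap1 wild type and 463, 17996 and 1823 in the abf1 wild type. TIR1, a cell wall mannoprotein made in cold and low oxygen, read 2633, 25364 and 768 against 704, 12469 and 533. In both genes array 2 was the highest of its strain, and the same held for WSC4, a sensor-like membrane protein, at 655, 3046 and 154 against 251, 2273 and 299.

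The remaining genes of largest spread varied in other ways, except DPI8. RGI1, a gene of energy metabolism under respiration, read 2227, 1159.7 and 195 in the rap1 wild type and 422, 14161 and 373 in the abf1 wild type. GSY1, glycogen synthase, read 1295, 717 and 449.7 against 468, 9367 and 542, so abf1 array 2 was high and rap1 array 2 was not. IZH4, a membrane protein linked to zinc and sterols, was far below the rest in abf1 array 1, at 5004, 4569.9 and 1832 against 138, 4315 and 1226. The noncoding gene YNCM0009C was far above the rest in rap1 array 2, at 349, 4313 and 180.1 against 301, 316 and 253. DPI8 was high in array 2 of both strains, at 414, 4608 and 175 against 862, 5139 and 271.

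**Figure D5:**
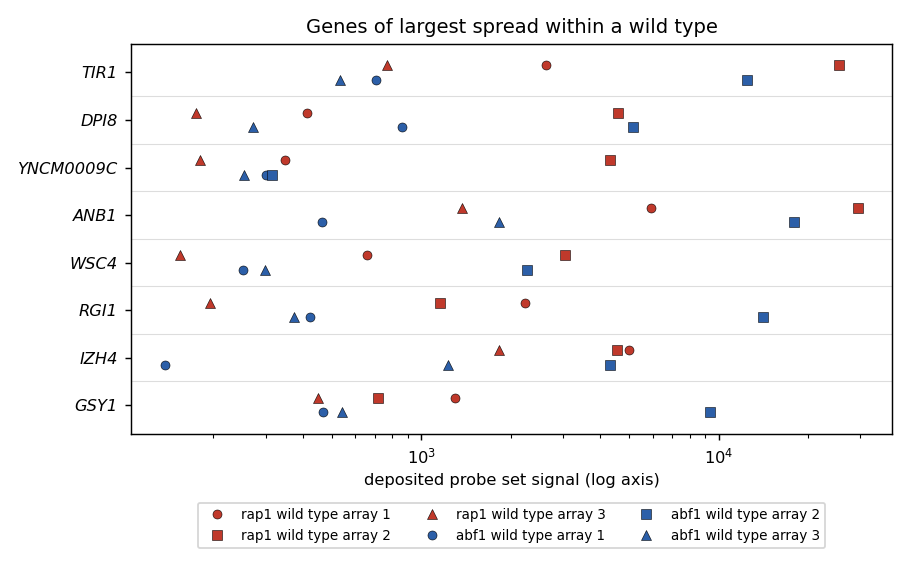
Deposited signal (log axis) in each wild-type array for the 8 genes that make up the 5 of largest SD of log2 signal in each wild type. Array 2, drawn as squares, is the highest of its strain in both strains for TIR1, DPI8, YNCM0009C, ANB1 and WSC4 and in the abf1 wild type alone for RGI1, IZH4 and GSY1.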

How the data were processed

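Per the labels, RNA of 12 yeast samples was hybridised to 1-colour Affymetrix arrays, 3 for each of 4 strains; the 6 wild-type arrays are compared here. Each deposited value is a probe set's signal intensity, unlogged. The submitters' processing notes name MAS5 as the authors' tool; its version and settings were not given in the sources used here. Array number, not read depth, limits precision. Gene names came from the platform's probe table: 6504 probe sets name 1 gene, 328 several and 2443 none, and the unnamed ones were left out. The brightest probe set stood for a gene. An offset of 12.6, the 10th percentile of signal, was added before log2. Features whose mean over all 12 arrays lay in the lowest 20% were dropped, which kept 4687 of 5859.

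limma 3.58.1 in R 4.3.3 fitted 4 group means over all 12 arrays with a variance trend, and p-values were adjusted over the 4687 features by Benjamini-Hochberg; the fit's residual spread includes the 6 mutant arrays. The main fit did not pair arrays by replicate number. Deviations from the strain means correlated at 0.051, 0.53 and 0.42 between same-numbered arrays of the 2 wild types. Across the strains, arrays of different number correlated at -0.49 to 0.15, and 4 of 6 arrays were closest to their own number. Arrays 2 and 3 thus shared part of their spread with the same number of the other strain, which the main fit leaves in its residual spread. The alternatives were other scalings, offsets, filters and probe choices, no variance trend, the 6 wild-type arrays alone and a fold of at least 2. Further ones were a random block for each experiment and replicate number, a replicate block and leaving out each array.

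Members and lists were chosen with earlier results of these data known. The rule named RAP1, ABF1, marker and mating-type genes, the 15 non-overlapping genes of largest difference per direction at an unadjusted p under 0.01, the 15 brightest and 10 dimmest probe sets, the 2 members of smallest p per list, and the 5 genes of largest SD per strain. Further list members, CYB2 and the branched-chain list were chosen after their values were seen.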

Additional observations from a re-analysis of the deposited data

How the results depend on the processing

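The adjusted test called 0 features higher and 0 lower in the rap1 wild type under 20 of 21 alternatives, among them the replicate block over all 12 arrays (0 and 0). The exception was the fit of the 6 wild-type arrays alone with a replicate block, which called 3 higher and 12 lower. LEU1, OAC1 and a shared probe set of Ty genes were higher. BTN2, HSP42, OM45, CPP3, DDR2, CYB2, ROQ1, SSA3, SSA4, HSP82, GOR1 and PIC2 were lower. The sample titles give replicate numbers and do not say whether same-numbered arrays were handled together, so which fit suits the design is not known. At an unadjusted p under 0.05, 18 were higher and 138 lower in the main fit. Quantile scaling gave 34 and 122, and median centring 31 and 109. The 6 wild-type arrays alone gave 43 higher, and the block 97 and 427 over 12 arrays and 131 and 457 over 6. Every probe set taken singly gave 61 higher, from more features than the main fit. A filter at the 50th percentile gave 90 lower, from fewer features. Those counts therefore cannot be set directly beside 18 and 138. Leaving out 1 array gave 5 to 48 higher and 55 to 246 lower: 5 and 55 without rap1 array 2, 7 and 79 without abf1 array 1, 28 and 246 without rap1 array 3, 39 and 166 without rap1 array 1, and 48 and 192 without abf1 array 2; the cause was not tested. Of 69 single genes, all those with a difference given above among them, 43 were recomputed under 21 alternatives and 26 under 20; none changed its sign in those, and 14 passed the adjusted test in the 6-array block fit alone. Signals near the offset carry the least information, and with 3 arrays a strain the median standard error was 0.33.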
